A study of Rattus norvegicus with 10 samples.

Results

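The ErbB family was followed through rat mammary tumours as 10 genes, the 4 receptor genes Egfr, Erbb2, Erbb3 and Erbb4 and the 6 ligand genes Areg, Ereg, Btc, Hbegf, Tgfa and Egf. The members were found by matching the RefSeq transcript identifier of each array probe to a gene symbol, and all 10 had at least 1 probe (11 probes of 41012 on the array). To be tested, a probe had to stand well above its background in 5 or more of the 10 tumours. 8 of the 10 genes met this, of 16779 genes in all, while Erbb3 and Hbegf did not.

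The tumours came from female Sprague-Dawley rats that were 110 days old and whose dams differed in diet. The first group (WD, 5 tumours, WD1 to WD5) had dams on a Western-style diet, rich in fat and poor in fiber and oligoelements, from gestational day 12 to 20 and postnatal day 1 to 21. The other group (CD, 5 tumours, CD1 to CD5) had dams on the control diet over the same days. From weaning on, both groups of daughters were fed control diet, and at 3 weeks each got 1 intraperitoneal dose of 50 mg/kg N-methyl-N-nitrosourea, an alkylating carcinogen. Mammary tissue without the carcinogen or without a tumour was not analysed here. RNA was taken from tubular or papillary tumours, and 1 array was run per tumour. The labels do not say which tumours share a dam or litter, so p-values measure only the spread between these tumours.

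ErbB receptors are tyrosine kinases of the cell surface that act in pairs when a ligand binds. Egfr binds epidermal growth factor (Egf), transforming growth factor alpha (Tgfa), amphiregulin (Areg), epiregulin (Ereg), betacellulin (Btc) and heparin-binding EGF-like growth factor (Hbegf), and the last 3 of these also act through Erbb4. Erbb2 has no ligand of its own and is the favoured partner of the other receptors, and Erbb3 has little kinase activity and signals through its partner. In the mammary gland amphiregulin is a target of the estrogen receptor that drives duct growth, and ERBB2 is an oncogene of human breast cancer.

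The arrays were read as spot brightness, and each level below is the log2 of a probe's processed signal minus the 75th percentile of its array, so a level of 0 is that percentile. Levels of different probes cannot be set against each other, so each gene is compared only between tumours. The 75th percentile lay between 72.8 and 170 intensity units in WD tumours and between 85.1 and 226 in CD tumours. Between 16686 and 21907 probes were well above background on WD arrays and between 18588 and 21467 on CD arrays. The luminal keratins Krt8 and Krt18, which mark the gland's lining cells, were well above background on all 10 arrays.

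3 promoters are shown, those of Erbb2, the member with the lowest p, and of Areg and Btc. RefSeq (GRCr8) held promoters for 8 of the 10 genes, and Erbb3 and Ereg had no entry. Each runs from 250 bases before to 50 bases after the gene's start, 5′ to 3′ on the gene's strand. Capitals mark matches on either strand. The letters searched were TATAAA for the TATA box, CCAAT for the CCAAT box, GGGCGG for the GC box, TGACGTCA for the cyclic AMP response element, GCCNNNGGC for AP-2 and TGANTCA for AP-1, and the estrogen response element was searched too. None of the matches shown overlap. The windows are chr10:83907351-83907650 on the plus strand for Erbb2, chr14:17265592-17265891 on the minus strand for Areg and chr14:16992418-16992717 on the plus strand for Btc.
Erbb2: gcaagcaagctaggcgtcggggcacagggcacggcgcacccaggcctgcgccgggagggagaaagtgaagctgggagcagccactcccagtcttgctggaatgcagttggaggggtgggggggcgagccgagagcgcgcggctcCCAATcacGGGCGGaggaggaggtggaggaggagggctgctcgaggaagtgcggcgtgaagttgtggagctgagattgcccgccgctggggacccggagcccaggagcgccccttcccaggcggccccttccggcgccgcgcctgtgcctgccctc
Areg: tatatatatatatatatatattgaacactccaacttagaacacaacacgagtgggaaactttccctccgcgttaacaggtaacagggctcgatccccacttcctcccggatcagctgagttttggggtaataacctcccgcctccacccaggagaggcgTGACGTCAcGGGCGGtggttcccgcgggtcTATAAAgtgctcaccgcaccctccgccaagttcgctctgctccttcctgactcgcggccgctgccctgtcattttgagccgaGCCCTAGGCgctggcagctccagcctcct
Btc: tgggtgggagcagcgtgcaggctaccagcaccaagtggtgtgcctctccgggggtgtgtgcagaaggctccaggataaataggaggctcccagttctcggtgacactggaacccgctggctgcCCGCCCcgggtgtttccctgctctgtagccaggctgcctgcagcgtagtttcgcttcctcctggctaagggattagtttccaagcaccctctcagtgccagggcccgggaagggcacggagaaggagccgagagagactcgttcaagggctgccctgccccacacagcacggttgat
The Erbb2 window held 1 CCAAT match and 1 GC box, the Areg window 1 cyclic AMP response element, 1 GC box, 1 TATA box and 1 AP-2 match, and the Btc window 1 GC box. The cyclic AMP response element is rare, as 1.83% of 33469 rat promoters of the same length hold it, against 33.1% for the GC box, 37.5% for CCAAT, 14.2% for the TATA box and 15.1% for AP-2. Of the 8 member promoters 6 held a GC box, and 0 held the AP-1 or estrogen response element letters (7.33% and 0.0269% of all promoters). A match is a run of letters and was not tested as a binding site.

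Across the family, all 8 kept members had a lower mean level in WD tumours than in CD tumours, but no difference passed the test over all genes (limma, lowest adjusted p 0.202). Differences are WD minus CD in log2 units, and over all genes 48.6% lay below 0 and the median was 0.01. The members' median was -0.44. 1 of the 8, Erbb2, had an unadjusted p under 0.05, where 15.5% of all genes did (7.72% as lower genes). In 0 of the 8 did the WD tumours all lie below or above the CD tumours, as they did for 3.65% of all genes (2.32% with WD below). With slide as a block 6 of the 8 were lower, and members measured in the same tumours are not independent. The plot of differences shows the interval of each.

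**Figure D1:**
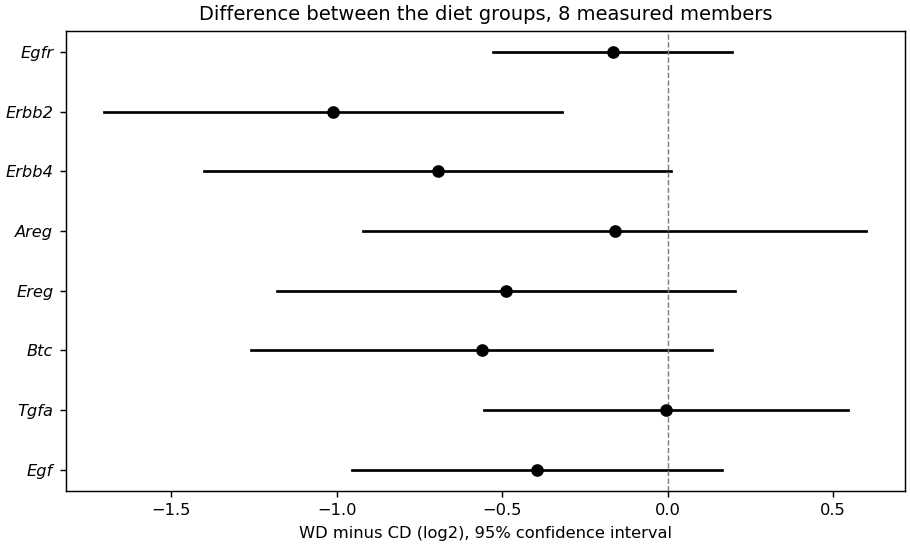
Difference between the diet groups (WD minus CD, log2) for the 8 measured members, with 95% confidence intervals from limma. The interval of Erbb2 (-1.70 to -0.32) lies below 0, and the other 7 intervals hold 0.

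Erbb2, the partner receptor, differed most. Its level was 0.74, 0.25, -0.32, -0.0027 and 0.01 in WD1 to WD5, against 1.26, 1.57, 0.35, 1.98 and 0.58 in CD1 to CD5. CD4 was highest and WD3 lowest, every WD tumour lay below the CD mean, and the groups overlapped because WD1 lay above CD3 and CD5. The mean was 0.14 ± 0.39 (SD, n = 5) in WD tumours and 1.15 ± 0.68 (SD, n = 5) in CD tumours, a difference of -1.01 ± 0.32 (SE). That is 2.01-fold lower (unadjusted p 0.00816, adjusted p 0.202 in limma), and 135 of 16779 genes (0.805%) were lower by at least 1 log2 unit. The Erbb2 probe is printed 10 times on each array, and the SD between these spots had a median of 0.087 over arrays (0.065 to 0.16). That is the spread of spots within 1 array and says nothing of the diet groups. With 1 array per tumour, the error between arrays of the same tumour was not measured.

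Array brightness moved with this result. The Erbb2 level followed the log2 75th percentile of its array (Pearson r 0.68, permutation p 0.037, adjusted over 9 relations 0.111, Spearman rho 0.72, p 0.0238, adjusted 0.0825, n = 10 arrays). Without WD2 and WD3 r was 0.55, and within the groups it was 0.23 in WD and 0.54 in CD. The log2 percentile averaged 6.67 ± 0.48 (SD, n = 5) on WD arrays and 7.41 ± 0.57 (n = 5) on CD arrays. With this brightness as a covariate the Erbb2 difference was -0.68 (unadjusted p 0.107, limma adjusted p 0.856). Within slides 1, 2 and 3 it was -1.08, -0.62 and -1.61, lower in WD each time, with 1 to 2 tumours of a group per slide. The part that brightness has in the difference was not tested further.

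**Figure D2:**
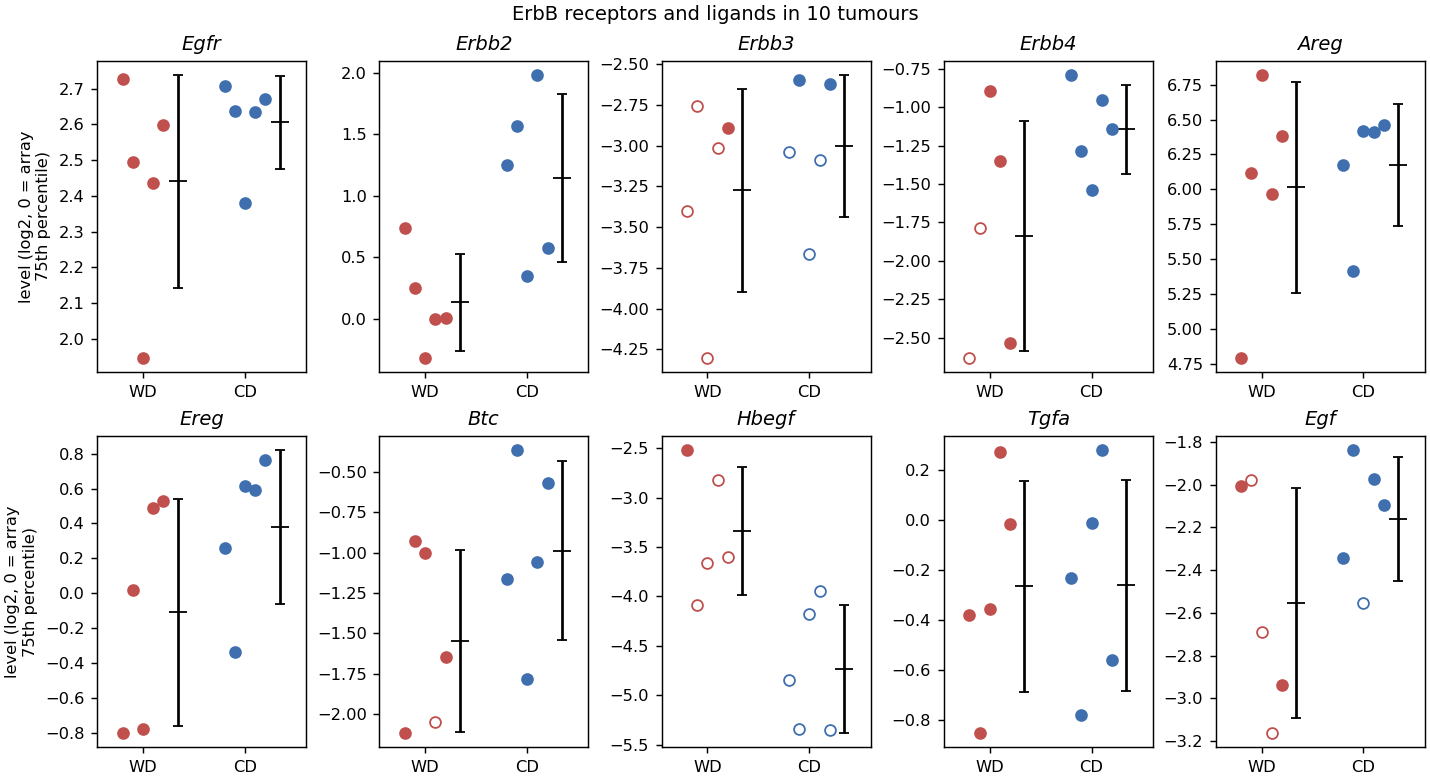
Level of each of the 10 genes (log2, 0 is the 75th percentile of the array) in 5 WD tumours and 5 CD tumours, with mean and SD (n = 5) beside the points. Filled points were well above background and open points were not, and the vertical axes differ between genes. Erbb2 shows WD values from -0.32 to 0.74 and CD values from 0.35 to 1.98, while Hbegf has 1 filled point.

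Luminal markers moved with Erbb2 as well. The mean level of 16 kept luminal genes (of 20 listed) ran from 3.39 to 3.77 in WD tumours and from 3.61 to 4.05 in CD tumours, and all 18 on the array were detected in at least 1 tumour. Of these 16 genes 10 were lower, 3 of them (Krt8, Krt19 and Rab25) with an unadjusted p under 0.05 (7.72% of all genes were lower at that p) and 0 after adjustment. Erbb2 ran with that mean from tumour to tumour (r 0.82, permutation p 0.00347, rho 0.73, p 0.0203), but among 72 relations of members and marker lists this did not pass (adjusted p 0.125 and 0.329). Without CD1 and WD4 r was 0.87, with group means removed 0.68, with slide means removed 0.79 and with brightness removed 0.64. Single luminal genes differed widely, from Spint2, an inhibitor of membrane proteases, with r 0.92 and Krt8 with 0.82 to Krt18 with -0.61. In bulk tumours fewer luminal cells and less Erbb2 RNA per cell cannot be told apart. T cell genes ran the other way from Erbb2 (r -0.69, permutation p 0.0263, adjusted p 0.219, rho -0.68, p 0.0351, adjusted p 0.329). Without WD3 and WD4 r was -0.48, with group means removed -0.41 and with brightness removed -0.44. The mean level of the T cell genes was 0.60 to 2.54 in WD tumours and 0.10 to 1.05 in CD tumours. Cd4 was the only listed T cell gene not detected on any array. Fibroblast genes also ran the other way from Erbb2 (r -0.67, permutation p 0.0346, adjusted p 0.219, rho -0.72, p 0.0231, adjusted p 0.329). Without CD1 and CD4 r was -0.30, with group means removed -0.54 and with brightness removed -0.67. All 5 kept T cell genes, all 13 kept fibroblast genes and all 12 kept macrophage genes had higher means in WD tumours, with medians of 1.03, 0.63 and 0.60, where the median of all genes was 0.01. Of these 4, 2 and 2 had an unadjusted p under 0.05 (7.8% of all genes were higher at that p), and 0 passed after adjustment. All 4 kept adipocyte genes were higher too (median 0.88), 0 of them at that p. Of 6 kept mast cell genes 5 were lower (median -1.15), 1 of them at that p. Erbb2 had r -0.49 with the macrophage mean, -0.14 with the adipocyte mean and -0.08 with the mast cell mean (permutation p 0.155, 0.688 and 0.838). The mean fibroblast level ran from 1.47 to 3.09 in WD tumours and from 1.23 to 2.44 in CD tumours, and the macrophage level from 1.89 to 3.88 in WD and from 2.34 to 3.04 in CD. The part of these cells in the Erbb2 difference was not tested.

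The genes beside Erbb2 were lower and higher in about equal number. On rat chromosome 10 the nearest measured protein-coding genes on either side are Pgap3 and Mien1, followed by Grb7. Pgap3, which remodels membrane anchors, differed by -0.42 (unadjusted p 0.182) and had r -0.0042 with Erbb2 over the tumours. Mien1 differed by -0.32 (p 0.0644, r 0.45), and Grb7, an adaptor of receptor kinases, by 0.22 (p 0.425, r 0.05). Stard3 and Ppp1r1b, also close, differed by 0.01 and 0.21. Of 9 kept genes of the stretch that is co-amplified with ERBB2 in human breast cancer, 5 were higher and 4 lower, with 0 at an unadjusted p under 0.05, where 15.5% of all genes were, and a median of 0.01. Psmd3, a proteasome subunit, had the smallest p among them, with a difference of -0.66 (p 0.0578). No copy number was measured here.

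Egfr, the receptor shared by all 6 ligands, has 2 probes. With the brighter probe (A_44_P346408, 1 spot) its level was 2.73, 2.49, 1.95, 2.43 and 2.60 in WD1 to WD5, against 2.71, 2.64, 2.38, 2.63 and 2.67 in CD1 to CD5. 9 of the tumours lay between 2.38 and 2.73 and WD3 alone was below, so the groups overlapped. The mean was 2.44 ± 0.30 (SD, n = 5) in WD tumours and 2.61 ± 0.13 (n = 5) in CD tumours, a difference of -0.17 (95% interval -0.53 to 0.20, limma adjusted p 0.648). Without WD3 it was -0.04, and the 10 fits without 1 tumour ran from -0.24 to -0.04. The other probe (A_44_P194138, 10 spots) ran from -1.24 to 0.08 in WD tumours and from -0.94 to 0.11 in CD tumours, a difference of -0.37 (adjusted p 0.525). Both probes put WD3 lowest in WD and CD3 lowest in CD and had r 0.86 with each other (rho 0.84) as a description of 1 gene. The probe with 10 spots had a larger SD over tumours, 0.48 against 0.23.

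Egfr also moved with array brightness. Its r with the log2 75th percentile was 0.73 (permutation p 0.00376, adjusted over 9 relations 0.0338) and its rho 0.71 (p 0.0275, adjusted 0.0825), with r 0.70 without WD2 and WD3, 0.66 within WD and 0.95 within CD. Over all 16779 genes the median r with brightness was -0.06, with quartiles of -0.42 and 0.35. With brightness as a covariate the Egfr difference was 0.05 (adjusted p 0.967), the other sign from the -0.17 above. WD3 and CD3, the lowest Egfr tumours of their groups, had 75th percentiles of 72.8 and 85.1, the lowest of their groups.

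**Figure D3:**
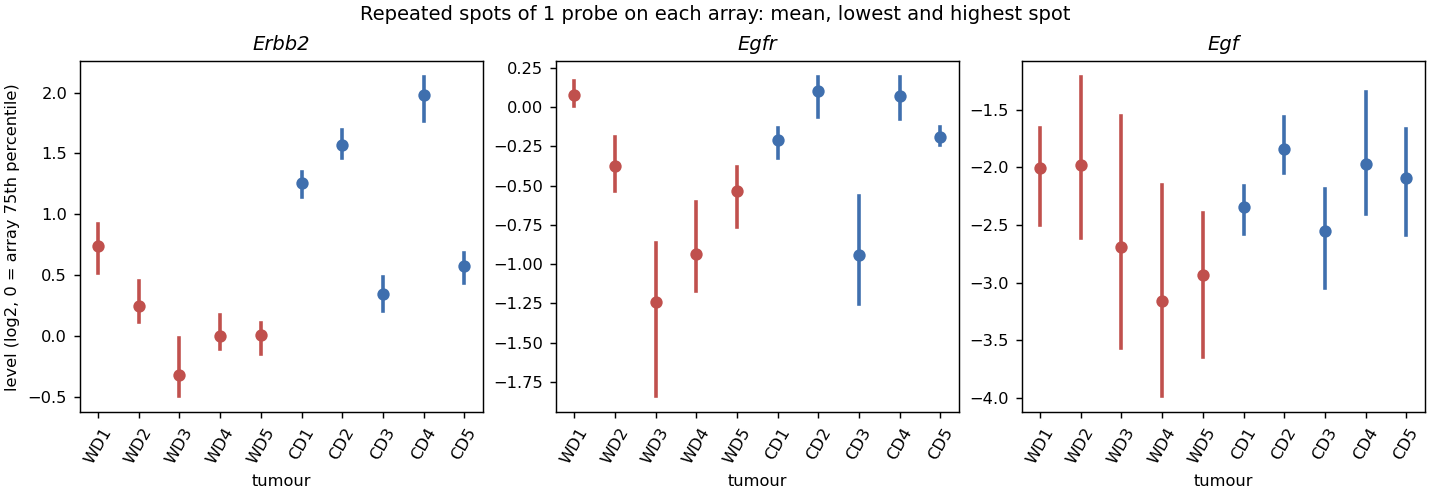
Mean, lowest and highest spot of the probes printed 10 times per array, for Erbb2, Egfr (A_44_P194138) and Egf, in WD1 to WD5 and CD1 to CD5 (log2, relative to that array's 75th percentile). Spots of 1 array lie close for Erbb2 and Egfr (median SD 0.087 and 0.092) and farther apart for Egf (0.31).

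Erbb4, a receptor of betacellulin and the neuregulins with roles in milk gland differentiation, was lower in some WD tumours. Its level was -2.63, -1.79, -0.89, -1.35 and -2.53 in WD1 to WD5, against -0.79, -1.28, -1.54, -0.96 and -1.14 in CD1 to CD5. WD1 and WD5 were lowest by far, while WD3 and WD4 lay within the CD range, and the probe was well above background in 3 of 5 WD tumours and 5 of 5 CD tumours. The mean was -1.84 ± 0.75 (SD, n = 5) in WD and -1.14 ± 0.29 (n = 5) in CD, a difference of -0.70 (95% interval -1.40 to 0.01, unadjusted p 0.0532, limma adjusted p 0.329). On slide 2 it differed by 0.22 the other way, and on slides 1 and 3 by -0.93 and -1.66. The size is uncertain, since WD1 and WD2 were not well above background.

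Erbb3, the receptor with little kinase activity, was near the detection limit. Its probe was well above background in 1 of 5 WD tumours (WD5) and 2 of 5 CD tumours (CD2 and CD5). Levels ran from -4.30 to -2.76 in WD tumours and from -3.66 to -2.60 in CD tumours and overlapped. A difference in Erbb3 was not detectable at this signal over background, and no fold is given.

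Areg, the estrogen-induced ligand, was well above background on every array and overlapped widely between the groups. Its level was 4.79, 6.12, 6.82, 5.97 and 6.38 in WD1 to WD5, against 6.17, 5.42, 6.41, 6.41 and 6.46 in CD1 to CD5. WD1 and CD2 were lowest, and both the lowest and the highest tumour were WD. The mean was 6.02 ± 0.76 (SD, n = 5) in WD tumours and 6.18 ± 0.44 (n = 5) in CD tumours, a difference of -0.16 (95% interval -0.92 to 0.60, limma adjusted p 0.853). Without WD1 the sign turned, at 0.15, and with slide as a block it was 0.02. Areg spanned 4.07-fold over the 10 tumours.

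Ereg, which lies beside Areg on chromosome 14, ran from -0.80 (WD1) to 0.53 (WD5) in WD tumours and from -0.34 (CD2) to 0.77 (CD5) in CD tumours. WD1 and WD3 were lowest, at -0.80 and -0.78, and the groups overlapped. The mean was -0.11 ± 0.65 (SD, n = 5) in WD and 0.38 ± 0.44 (n = 5) in CD, a difference of -0.49 (95% interval -1.18 to 0.21, limma adjusted p 0.472). Areg and Ereg shared WD1 and CD2 as the lowest tumours of their groups and had r 0.48 (permutation p 0.152, rho 0.53, p 0.121), with r -0.45 without those 2 tumours.

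Btc, on the other side of Areg, lay below its CD mean in 4 of 5 WD tumours and in CD1, CD3 and CD4. Its level was -2.12, -0.93, -1.003, -2.05 and -1.65 in WD1 to WD5, against -1.17, -0.37, -1.78, -1.06 and -0.57 in CD1 to CD5. CD2 and CD5 were highest and WD1 and WD4 lowest, with CD3 among the low tumours, so the groups overlapped. The mean was -1.55 ± 0.56 (SD, n = 5) in WD and -0.99 ± 0.55 (n = 5) in CD, a difference of -0.56 (95% interval -1.26 to 0.13, limma adjusted p 0.411). WD4 was the only tumour without a Btc signal well above background.

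Btc ran with Myh11 and Cnn1 of the basal and myoepithelial list, and not with its keratins. Its r with the mean level of 10 kept basal and myoepithelial genes (of 12 listed) was 0.95 (permutation p 5e-05, adjusted over 72 relations 0.0036) and its rho 0.95 (p 0.00011, adjusted 0.00792). It was the only 1 of the 72 relations to pass. Without WD1 and WD4 r was 0.91, with group means removed 0.93, with slide means removed 0.96 and with brightness removed 0.94. Among the genes of the list, Myh11, the smooth muscle myosin, had r 0.95 and Cnn1, calponin of the contractile apparatus, 0.86. The desmosome gene Dsc3 was next with r 0.66 (rho 0.53), and its SD over the tumours was 1.11. The basal keratins Krt5 and Krt14 and the basal transcription factor Tp63 had r -0.04, 0.13 and 0.01, and the keratin Krt17 and the desmosome gene Dsg3 had -0.37 and -0.57. Myh11 and Cnn1 also varied most over the tumours (SD 2.07 and 1.18, against 0.28 to 1.11 for the other 8) and so weigh most in the mean, and the smooth muscle genes Mylk and Tagln had r 0.55 and 0.45. Without Myh11 the list mean had r 0.89 with Btc, and without both it had 0.83, values added after seeing the data and given with no test. Smooth muscle of vessels expresses Myh11 and Cnn1 too, and the arrays cannot tell the cell types apart. The list's mean level ran from 1.43 to 2.18 in WD tumours and from 1.58 to 2.55 in CD tumours, with Oxtr not detected on any array. Myh11 and Cnn1 differed by -1.52 and -1.05 between the groups (limma adjusted p 0.513 and 0.413). Their part in the Btc difference was not tested.

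**Figure D4:**
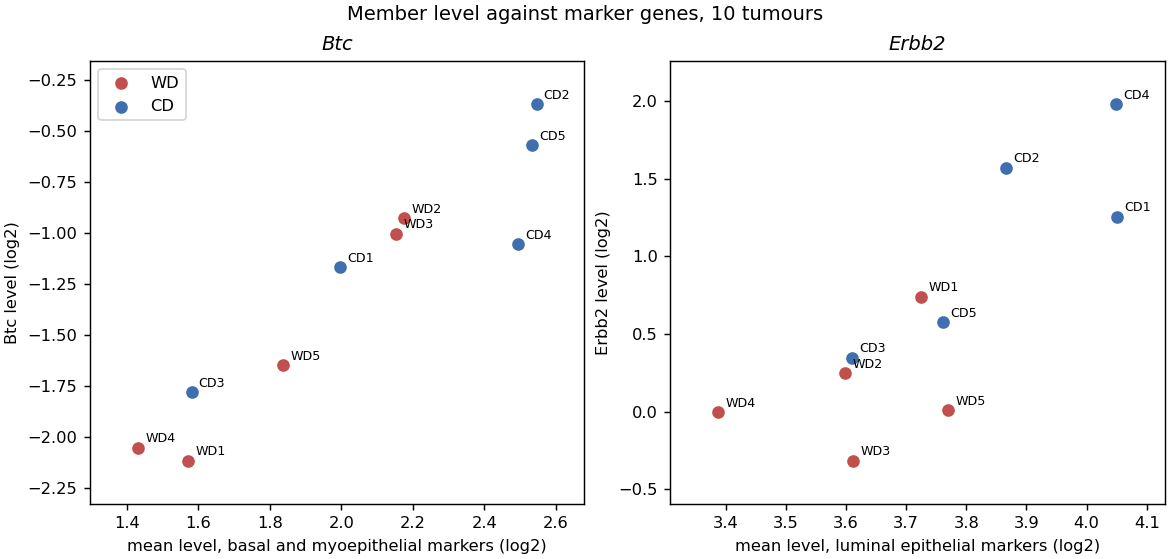
Left, Btc level against the mean level of the basal and myoepithelial markers, and right, Erbb2 level against the mean of the luminal markers, in 5 WD and 5 CD tumours (all axes log2). Btc lies close to a line (r 0.95), and Erbb2 is more scattered (r 0.82).

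Tgfa, an Egfr ligand made by epithelial and inflammatory cells, had nearly equal means in the groups. It ran from -0.85 (WD2) to 0.27 (WD4) in WD tumours and from -0.78 (CD2) to 0.28 (CD4) in CD tumours. The ranges nearly coincided, and the mean was -0.27 ± 0.42 (SD, n = 5) in WD and -0.26 ± 0.42 (n = 5) in CD. The difference was -0.0047 (95% interval -0.55 to 0.54, limma adjusted p 0.994).

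Egf, the first ligand found and a milk protein in rodents, was dim. Its level was -2.01, -1.98, -2.69, -3.16 and -2.94 in WD1 to WD5, against -2.34, -1.84, -2.56, -1.97 and -2.09 in CD1 to CD5. WD4 was lowest and CD2 highest, and the groups overlapped. The mean was -2.56 ± 0.54 (SD, n = 5) in WD and -2.16 ± 0.29 (n = 5) in CD, a difference of -0.39 (95% interval -0.95 to 0.17, limma adjusted p 0.472). Its size moved with the processing, to -0.09 with normexp background correction, -0.15 in the series matrix, -0.59 with quantile normalization (unadjusted p 0.027), -0.52 with slide as a block (unadjusted p 0.0167) and -0.24 without WD4, and no adjusted p was under 0.05. The Egf probe has 10 spots, and at least 50% of them were well above background in 2 of 5 WD and 4 of 5 CD tumours. All 10 spots were in CD2, CD4 and CD5, and none in WD4. CD2, CD4 and CD5 had the highest 75th percentiles of the arrays (204, 190 and 226 intensity units). WD2, WD3, WD4 and CD3, where Egf was not detected, had the lowest (81.0, 72.8, 98.6 and 85.1). The Egf level had r 0.36 with the log2 75th percentile (permutation p 0.303). The part of brightness in Egf detection was not tested.

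Hbegf, a ligand released by shedding that macrophages also make, was well above background in WD1 only. Its levels ran from -4.08 to -2.52 in WD tumours and from -5.35 to -3.94 in CD tumours, with an overlap of WD2 and CD4 alone. The CD levels are background readings, so no difference, fold or p is given for Hbegf.

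Correlation between members was not established for any pair. Of 28 pairs of kept members 2 had an unadjusted p under 0.05 and 0 passed after adjustment (lowest adjusted p 0.43 by Pearson and 0.252 by Spearman). Erbb2 and Egf had r 0.69 (permutation p 0.028, rho 0.79, p 0.009), with r 0.57 without CD2 and CD4, 0.59 with group means removed and 0.75 with slide means removed. Egf was well above background in 2 of 5 WD and 4 of 5 CD tumours, so its r rests partly on readings near background. Egfr and Erbb2 had r 0.63 (permutation p 0.0422, rho 0.71, p 0.0265), with 0.54 without CD3 and WD3, 0.56 with group means removed, 0.44 with slide means removed and 0.28 with brightness removed. Btc and Tgfa ran in opposite directions (r -0.61, permutation p 0.0627, rho -0.59, p 0.0794, r -0.69 without WD1 and WD4). WD1 was the lowest tumour for 4 of the 8 members, Erbb4, Areg, Ereg and Btc, and the highest for Egfr. The 8 highest levels included 2 in WD tumours, Egfr in WD1 and Areg in WD3.

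For each kept member the 3 genes of highest r among 8269 other genes with a symbol (2 of the 3 for Erbb4) are named as a description, picked for that r and sharing the same 10 arrays. The levels most like Erbb2 were those of the zinc transporter Slc30a7 (r 0.96, rho 0.94), the histone chaperone Hira (0.96, 0.96) and the clathrin adaptor Ap2a2 (0.96, 0.92). The levels most like Egfr were Jam3 (r 0.98), C2cd3 (0.97) and Fan1 (0.97). For Erbb4, Pgap3 (0.93), the gene next to Erbb2, and Nipa1 (0.91) were among the 3. For the ligands, Areg was most like Zfp90 (0.96), Cyb561d2 (0.94) and Vapb (0.93), and Ereg was most like Atg4c (0.91), Lrrc61 (0.87) and the microtubule protein gene Mapt (0.87). Btc was most like Myh11 (0.95), Popdc2 (0.93) and Ism1 (0.92). Tgfa was most like the translation factor Eif4a2 (0.95), the heat shock protein gene Hspb1 (0.93) and the RNA-binding protein gene Zfp36l1 (0.92), and Egf was most like Agk (0.93), Ddx46 (0.92) and the muscle calcium pump Atp2a1 (0.90).

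Genes around the family were counted in lists. No gene of any of these lists passed after adjustment, and the counts at an unadjusted p under 0.05 stand beside 7.72% lower and 7.80% higher genes overall. Of the other ErbB ligands, the neuregulins Nrg1 and Nrg2, which bind Erbb3 and Erbb4, were measured and differed by 0.34 and 0.16 (adjusted p 0.56 and 0.739). Of 7 measured genes of ligand shedding 4 were higher and 3 lower, with 0 at an unadjusted p under 0.05. Of these the metalloproteases Adam9 and Adam15 had the smallest p, with 0.33 and -0.23 (adjusted p 0.602 and 0.745), and Adam17, the main sheddase of Egfr ligands, differed by 0.01.

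The 6 lower genes with an unadjusted p under 0.05 were in the lists of intracellular signalling. Of 15 measured adaptor and Ras-MAPK genes 11 were lower and 4 higher, 2 lower ones with an unadjusted p under 0.05, and the median was -0.11. The kinases Mapk3 and Map2k2, which follow each other in the cascade, differed by -0.88 and -0.30 (limma adjusted p 0.228 and 0.293), and Mapk3 was well above background in 2 of 5 WD and 5 of 5 CD tumours. Of 18 genes of the PI3K-AKT-mTOR and STAT arm 12 were lower and 6 higher, 4 lower ones with an unadjusted p under 0.05, and the median was -0.06. The kinase Src, which associates with active receptors, was 0.45 ± 0.24 (SD, n = 5) in WD and 1.06 ± 0.12 (n = 5) in CD, a difference of -0.60 (unadjusted p 0.0019, limma adjusted p 0.181). The survival kinase Akt1 was 1.20 ± 0.39 in WD and 1.89 ± 0.38 in CD (SD, n = 5 each), a difference of -0.69 (adjusted p 0.215). The other two were Stat5b, a transcription factor of prolactin signalling, at -0.79 and Akt2 at -0.48 (adjusted p 0.268 and 0.285), with Akt2 well above background in 2 of 5 WD and 5 of 5 CD tumours.

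Of 17 measured negative regulators 9 were lower and 8 higher, with 0 at an unadjusted p under 0.05 and a median of -0.03. The smallest p were those of the ubiquitin ligase Stub1, which differed by -0.33, and Spred2, an inhibitor of Ras signalling, with 0.74 (limma adjusted p 0.367 and 0.409). Of 12 measured target genes 10 were higher and 2 lower, with a median of 0.21, and 1 higher gene had an unadjusted p under 0.05. That was Plaur, the urokinase receptor, at 0.81 (adjusted p 0.27), well above background in 3 of 5 WD and 2 of 5 CD tumours, and Myc, a growth regulator, was next at 0.45 (adjusted p 0.393). Many of these target genes respond to other signals as well.

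**Figure D5:**
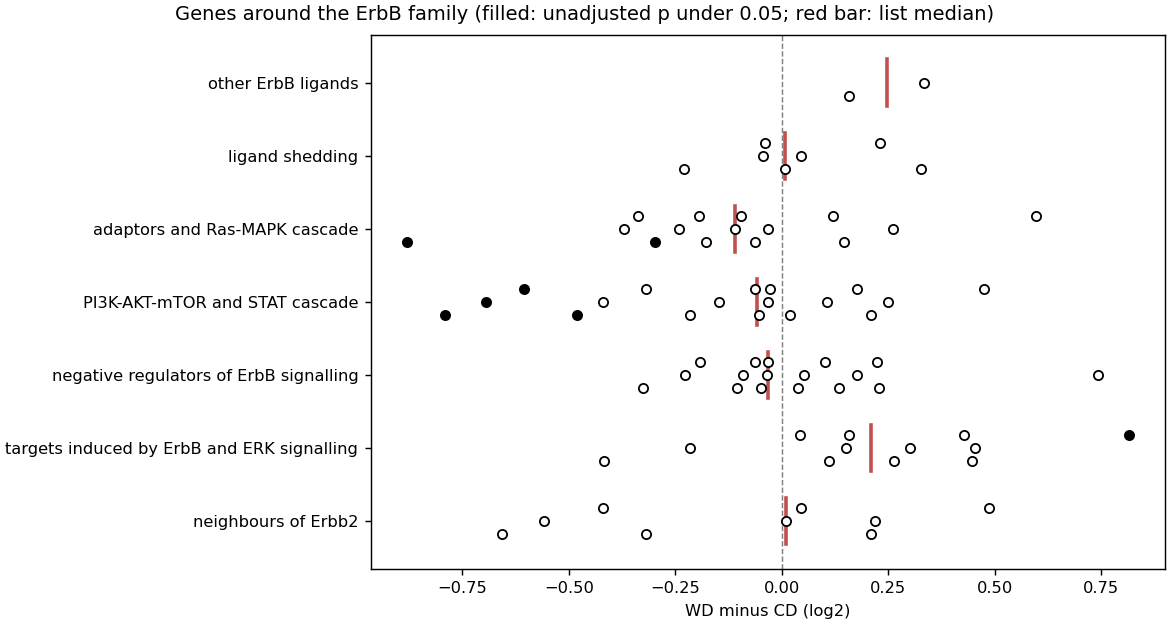
Difference between the groups (WD minus CD, log2) for each measured gene of 7 lists around the ErbB family, with the list median as a red bar. Filled points have an unadjusted p under 0.05, and they are 6 lower genes in the 2 kinase lists and Plaur among the targets.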

How the data were processed

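RNA of 10 tumours was hybridised to 1-colour (Cy3) Agilent whole rat genome arrays, 200 ng of total RNA each, per the labels' protocols. The deposited files give spot intensity as processed signal, background-subtracted and not scaled between arrays, per the file headers (Agilent Feature Extraction 11.5.1.1; the submitters' processing notes name version 15.5). Other columns hold median spot intensity and marks for outlier and detected spots. Log2 values stand in the deposited series matrix. Their rank order equals that of the median spot signals (lowest Spearman correlation 1), and column medians lie between 6.97 and 6.98. The sources used here do not name their tool.

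Processed signals were taken to log2, the array's 75th percentile was subtracted, spots with outlier marks were dropped and repeated spots averaged. A probe counted as detected with at least 50% of its spots well above background. A gene with 2 or more kept probes was read by its brightest. RefSeq (GRCr8) named 17502 of 41012 probes. The array annotation is on rn4, so chromosomes and the order of neighbouring genes were taken from RefSeq. No base positions are given apart from the RefSeq promoters.

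The diet groups were compared in limma 3.58.1 (R 4.3.3), Benjamini-Hochberg over 16779 genes, threshold 0.05, without covariates. On simulated data of 16779 genes it recovered 48% of 100 genes changed by 1 and 85% of 100 changed by 2 log2 units, with 11 false calls of 144. Noise was drawn separately for each gene, and the variation that genes share on real arrays was not simulated. These shares are therefore not the chance of finding such a change in these tumours. Correlations used 100000 permutations. Slide and scan coincide and cannot be told apart. Slides 1, 2 and 3 held 2, 2 and 1 WD and 1, 2 and 2 CD tumours. Replicate numbers did not pair tumours: correlations of same-numbered deviations ran from -0.02 to 0.16. The number of arrays limits the precision. Members and lists were chosen with earlier results of these data known. Named genes are the members, the 2 genes of smallest p of each pathway list, the 3 genes most like each member, and Krt8 and Krt18. 1 of the genes most like Erbb4 is not reported here. Adam17, Stat5b, Akt2, the neighbours of Erbb2 and the marker genes singled out beside Erbb2 and Btc were named after their values were seen. Python 3.11.15 with matplotlib 3.10.9 drew the plots.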

Additional observations from a re-analysis of the deposited data

Results flagged for a closer look

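Of 22 sets of 5 tumours (11 probes in both groups), 2 held a tumour far from the other 4 by Dixon's test, where chance gives about 1 in 20. Egfr was 2.38 in CD3 by its brighter probe, and the other CD tumours lay between 2.63 and 2.71. Areg was 5.42 in CD2, and the other CD tumours lay between 6.17 and 6.46.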

How the results depend on the processing

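In 11 alternatives and 10 fits without 1 tumour, no gene had an adjusted p under 0.05. Genes at an unadjusted p under 0.05 numbered 2603, against 499 with normexp background correction, 963 with array brightness as a covariate, 7055 without a filter on dim probes and 1853 (without CD4) to 3283 (without CD3) without 1 tumour. Lower genes made up 49.8% of them, 29.3% with normexp, 15% without the filter and 62.5% in the series matrix. The count of members at that p was 1, and 3 with quantile normalization or series matrix values, 2 with detection on all 5 arrays of a group (without Egf, which that filter drops) or with slide as a block, and 1 to 3 without 1 tumour (3 without CD3, 2 without WD2, WD3 or WD4). With brightness as a covariate it was also 1, but that member was Erbb4 (-0.92, unadjusted p 0.0483) and not Erbb2. Erbb2 was lower throughout, from -1.21 without CD3 to -0.68 with brightness as a covariate (-1.21 to -0.80 without 1 tumour). The sign turned for Areg with slide as a block (0.0178) and without WD1 (-0.36 to 0.15 without 1 tumour), for Egfr with brightness as a covariate (0.054) and for Tgfa with slide as a block (0.14) and without 1 tumour (-0.14 to 0.14). Within single slides, with no test, Erbb2 was -1.61 on slide 3, Erbb4 0.22 on slide 2 and -1.66 on slide 3, Ereg 0.10 on slide 3 and Btc -1.16 on slide 1. With the replicate block, genes numbered 2676 and members 1, and Erbb2 differed by -1.01 (limma adjusted p 0.217), so the block changed no call. The causes were not tested. Signal over background limits Erbb3, Hbegf, Egf and Erbb4. Counting Egf as detected only with more than 50% of spots, added after seeing the data, dropped Egf.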
